A study of Rattus norvegicus and Mus musculus with 74 samples.

Results

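The genes described here are the rodent cytochrome P450 genes of families 2, 3 and 4 (Cyp2, Cyp3 and Cyp4), many of which sit in tandem clusters, and the readout is the signal of 4 histone marks over them in rat and mouse brain cortex. Members were taken by symbol: Cyp, a family number of 2, 3 or 4, subfamily letters and a gene number. The rat table held 55 such genes of 20110 listed, from 21 subfamilies, and in the mouse there were 68 of 23362, from 20 subfamilies. Each gene was represented by the merged region with the highest mean signal over all libraries of its species among the regions that list it. Because neighbouring genes can share a region, the 55 rat genes fell on 50 regions and the 68 mouse genes on 63, out of 13757 and 14500 regions that represent a gene in the rat and mouse tables. In the rat 22 of the 55 genes had this region inside the gene, 21 downstream and 12 upstream, and in the mouse the counts were 27, 23 and 18 of 68.

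Cytochromes P450 are haem proteins of the endoplasmic reticulum that insert an oxygen atom into drugs, steroids, fatty acids and other lipids, with electrons passed on by the reductase Por. The Cyp2a, Cyp2b, Cyp2c, Cyp2d, Cyp3a and Cyp4a subfamilies are best known from liver, where several copies lie side by side on a chromosome, whereas single-copy members such as Cyp2r1 (vitamin D hydroxylation) and Cyp2u1 (fatty acid hydroxylation, with brain among its known tissues) are more widely used. H3K4me3 and H3K9Ac mark the promoters of genes that are active or ready for use, H3K27me3 marks Polycomb-silenced genes, and H3K9me3 marks constitutive heterochromatin and, in many tissues, silenced tandem gene families.

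Chromatin immunoprecipitation followed by sequencing was run on cortex with antibodies to H3K4me3, H3K9Ac, H3K27me3 and H3K9me3, giving 72 ChIP libraries with 3 libraries for each mark and group and 2 pooled inputs. In Sprague-Dawley rats the groups were TAK-418-treated animals exposed to VPA (valproic acid) by prenatal injection, vehicle-treated VPA-exposed animals and vehicle-treated healthy controls. In C57BL/6J mice they were TAK-418-treated animals exposed prenatally to poly I:C, a double-stranded RNA mimic, vehicle-treated poly I:C-exposed animals and vehicle-treated healthy controls. TAK-418 is an inhibitor of the enzyme activity of the histone demethylase Kdm1a (LSD1). No group was an unexposed animal given TAK-418, so the drug can be read only on top of the exposure, and the labels used here give neither age nor sex nor dose. Nor do they tell whether each library is a different animal, and the p-values therefore measure the spread between these libraries, which may be technical. Whole cortex was used, so fewer cells of a type and less of a mark per cell cannot be told apart. Over the marker genes of neurons (5 regions) the median region lay at percentile 67.3 of H3K9Ac signal in control rats and at 70.4 in control mice. Over those of hepatocytes it lay at 30.1 in rats (5 regions) and 61.9 in mice (3 regions). Markers of astrocytes, oligodendrocytes, microglia and endothelium stood at 42.6, 41.8, 37.1 and 38.4 in rats. In mice they stood at 46.7, 48.7, 38.2 and 36.7, below the hepatocyte markers, so these ranks do not by themselves identify the tissue.

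Promoter sequences differed between members with the highest H3K4me3 and members with the highest H3K9me3. The rat RefSeq promoter table (build GRCr8, not the rn5 build of the signal files) held 47 of the 55 genes, each as 300 bases, 250 before and 50 after the annotated start. Shown here are Cyp2r1 and Cyp2u1, the members with the highest H3K4me3 among regions that list P450 genes alone, and Cyp2c7 and Cyp4a2, the members with the highest H3K9me3. The 2 ends are not exclusive. The Cyp2u1 region also held H3K9me3 intervals in 8 of 9 libraries and stood at percentile 88.6 of that mark in controls. Capitals mark CG pairs, the substrate of DNA methylation, and each sequence runs 5′ to 3′ on the strand of its gene.
Cyp2r1, a vitamin D hydroxylase, chr1:178232125-178232424, minus strand: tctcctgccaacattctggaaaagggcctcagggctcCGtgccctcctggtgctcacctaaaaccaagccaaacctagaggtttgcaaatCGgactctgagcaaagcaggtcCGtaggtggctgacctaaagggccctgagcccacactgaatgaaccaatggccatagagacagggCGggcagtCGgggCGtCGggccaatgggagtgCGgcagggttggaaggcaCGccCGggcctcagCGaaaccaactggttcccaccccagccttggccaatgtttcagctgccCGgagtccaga
Cyp2u1, a fatty acid hydroxylase, chr2:222540940-222541239, minus strand: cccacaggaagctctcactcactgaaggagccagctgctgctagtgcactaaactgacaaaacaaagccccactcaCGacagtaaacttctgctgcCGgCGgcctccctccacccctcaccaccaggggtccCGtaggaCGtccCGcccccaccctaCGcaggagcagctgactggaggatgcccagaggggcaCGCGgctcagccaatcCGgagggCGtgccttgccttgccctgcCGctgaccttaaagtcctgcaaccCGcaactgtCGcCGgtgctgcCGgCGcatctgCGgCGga
Cyp2c7, a liver enzyme of the Cyp2c cluster, chr1:247966144-247966443, plus strand: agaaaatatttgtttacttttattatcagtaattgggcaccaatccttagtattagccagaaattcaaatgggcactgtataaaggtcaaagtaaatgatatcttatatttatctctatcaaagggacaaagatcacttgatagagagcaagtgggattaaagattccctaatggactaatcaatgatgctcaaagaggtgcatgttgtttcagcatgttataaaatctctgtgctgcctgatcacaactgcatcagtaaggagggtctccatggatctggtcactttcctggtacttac
Cyp4a2, a fatty acid omega-hydroxylase, chr5:134170859-134171158, minus strand: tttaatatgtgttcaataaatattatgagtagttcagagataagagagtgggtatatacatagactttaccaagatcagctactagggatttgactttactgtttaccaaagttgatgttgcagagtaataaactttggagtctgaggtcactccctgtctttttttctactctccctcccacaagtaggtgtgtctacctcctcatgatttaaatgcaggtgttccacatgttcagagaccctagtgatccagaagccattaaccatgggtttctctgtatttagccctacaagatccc
Cyp2r1 had 12 CG pairs and Cyp2u1 had 19, whereas Cyp2c7 and Cyp4a2 had 0 each. The string TATAAA, searched on both strands, occurred in the Cyp2c7 promoter and in none of the other three. Over the 47 matched members the median was 3 CG pairs per promoter (range 0 to 19), against 7 over all 27457 promoters of the table. The 16 members whose region carried H3K4me3 had a median of 7.5 CG pairs (range 1 to 19), and 2 of the 16 held TATAAA. The 31 members whose region did not had a median of 2 (range 0 to 5), and 12 of the 31 (38.7%) held TATAAA. Among all promoters 14.3% held that string. The region of a member can lie away from this promoter, as for Cyp2s1, Cyp4a2 and Cyp2c7, 47268, 25181 and 8699 bases from the gene start. It can also list other genes, as for Cyp2w1 with 9 genes, so its H3K4me3 need not come from the P450 promoter.

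**Figure D1:**
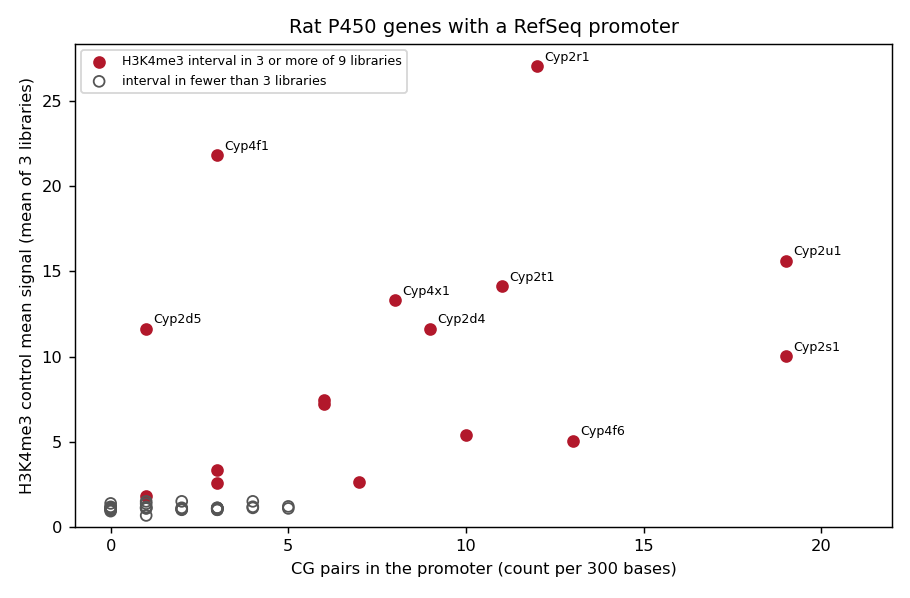
CG pairs in the 300-base RefSeq promoter of each matched rat member (x axis) against its mean H3K4me3 signal in the 3 control libraries (y axis, mean signal of the merged region, scale of the deposited file). Members whose region held a called H3K4me3 interval in at least 3 of 9 libraries reach 19 CG pairs, and the others do not pass 5. The region can lie away from the P450 promoter or hold promoters of other genes.

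Most P450 regions carried H3K9me3 and lacked the marks of active promoters, the reverse of what the whole gene table showed. A region was counted as marked when a called interval overlapped it in at least 3 of the 9 libraries of the mark. In the rat 35 of 50 member regions (70.0%) were marked by H3K9me3, against 24.5% of all regions that represent a gene, and in the mouse 44 of 63 (69.8%) against 19.3%. H3K4me3 marked 19 of 50 member regions in the rat (38.0%, all regions 69.9%) and 19 of 63 in the mouse (30.2%, all regions 67.2%). H3K9Ac marked 17 in the rat (34.0%, all regions 70.4%) and 15 in the mouse (23.8%, all regions 63.3%). H3K27me3 was the rarest, with 10 in the rat (20.0%, all regions 33.5%) and 5 in the mouse (7.94%, all regions 26.3%). A promoter was overlapped by 62.0% of rat and 63.5% of mouse member regions, against 83.0% and 84.9% of all regions. How far this difference accounts for the lower H3K4me3 and H3K9Ac shares was not tested. Regions were also chosen by a signal that includes H3K9me3, so the H3K9me3 share is not independent of that choice. These shares are descriptions of the regions and were not tested.

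The same contrast appears when each region is ranked by its mean signal among all regions that represent a gene in the same library, from 0 to 100. In control rats the median member lay at percentile 88.2 ± 0.328 for H3K9me3, 35.1 ± 7.16 for H3K27me3, 18.6 ± 1.26 for H3K4me3 and 15.4 ± 0.334 for H3K9Ac (mean ± SD, n = 3 libraries). In control mice the values were 90.8 ± 1.83, 26.1 ± 8.46, 13.3 ± 1.24 and 12.9 ± 0.315 in the same order of marks. Each region was chosen by a mean signal over all marks, H3K9me3 included, so its H3K9me3 rank partly reflects that choice. With the nearest region of each gene instead, the H3K9me3 median was 84.8 ± 1.61 in control rats and 85.6 ± 1.60 in control mice. Ranks do not depend on the scale of a library, and for H3K9me3 the rat groups stayed within 3 points of each other, at 88.8 ± 2.48 in TAK-418-treated VPA rats, 90.1 ± 0.604 in vehicle-treated VPA rats and 88.2 ± 0.328 in controls. The median rank of H3K4me3 moved as little, at 19.4 ± 1.22, 17.0 ± 0.776 and 18.6 ± 1.26 in those 3 rat groups. The mouse H3K9me3 ranks were less even, with a member median at 92.4, 62.0 and 92.5 in TAK-418-treated poly I:C mice, 67.2, 56.7 and 84.3 in vehicle-treated poly I:C mice and 92.9, 89.7 and 89.8 in controls.

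**Figure D2:**
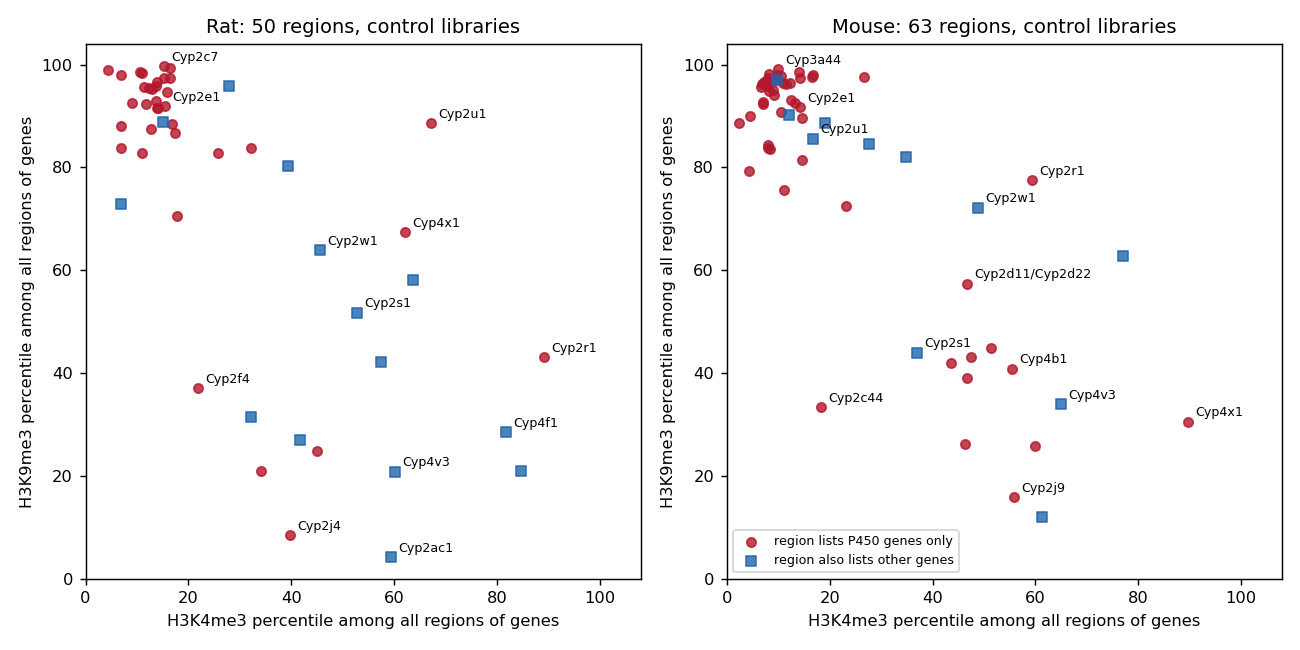
Percentile of each member region among all regions that represent a gene, from 0 to 100, with H3K4me3 on the x axis and H3K9me3 on the y axis (mean of 3 control libraries), rat on the left and mouse on the right. Circles are regions that list P450 genes alone and squares regions that also list other genes. Most members sit at the upper left, and the median member lies at 88.2 for H3K9me3 and 18.6 for H3K4me3 in the rat and at 90.8 and 13.3 in the mouse.

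Related P450 genes were not equally covered. Among 5 liver-type subfamilies of the rat, the median H3K9me3 percentile in control libraries was 95.8 for Cyp2a, 96.2 for Cyp2b, 92.0 for Cyp2c, 92.8 for Cyp3a and 95.2 for Cyp4a. The mouse clusters stood at 93.2 for Cyp2a, 97.1 for Cyp2b, 92.5 for Cyp2c, 96.7 for Cyp3a and 91.9 for Cyp4a. In these 5 subfamilies an H3K4me3 interval was found at 1 of 6 rat Cyp2b regions, and at no region of the other rat subfamilies or of any of the 5 in the mouse. The Cyp2j genes, which epoxidise arachidonic acid, and the Cyp4f genes, which hydroxylate leukotrienes and other fatty acids, were mixed. Cyp2j had a median H3K9me3 percentile of 22.9 in the rat (range 8.49 to 70.6) and 62.3 in the mouse (range 15.9 to 92.5), with H3K9me3 intervals at 1 of 4 and 3 of 6 regions and H3K4me3 intervals at 3 of 4 and 3 of 6. Cyp4f had a median of 80.3 in the rat (range 26.9 to 88.8) and 43.4 in the mouse (range 26.3 to 84.5), with H3K9me3 intervals at 4 of 7 and 2 of 6 regions and H3K4me3 intervals at 5 of 7 and 6 of 6. Cyp2d, also best known from liver, was mixed too. Its median was 97.6 in the mouse, but the region of Cyp2d11 and Cyp2d22 stood at 57.4 with no H3K9me3 interval in any library. That region held H3K4me3 intervals in 9 of 9 libraries, and the region of Cyp2d10 and Cyp2d9 in 3 of 9. The rat has only 2 Cyp2d regions, at 42.1 for Cyp2d4 and Cyp2d5, in a region of 50199 bases that lists 6 genes and overlaps 4 CpG islands, and at 82.8 for Cyp2d1, Cyp2d2 and Cyp2d3. The former held H3K4me3 intervals in 9 of 9 libraries and the latter in 1 of 9.

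Member regions were poor in CpG islands, which 11 of 50 rat regions (22.0%) and 6 of 63 mouse regions (9.52%) overlapped, against 60.2% of all regions that represent a gene in each species. All 11 rat and all 6 mouse regions with an island carried H3K4me3, whereas 8 of 39 rat regions (20.5%) and 13 of 57 mouse regions (22.8%) without one did. For comparison, H3K4me3 marked 97.1% of all rat regions with an island and 28.9% of those without, and 95.3% and 24.6% in the mouse. H3K9me3 was more frequent among members in both classes. It marked 76.9% of rat and 73.7% of mouse member regions without an island, against 41.3% and 35.3% of all regions without one. Among regions with an island it marked 5 of 11 rat members (45.5%) and 2 of 6 mouse members (33.3%), against 13.4% and 8.81% of all such regions. Over both classes together region width was similar, with a median of 10399 bases for members and 9399 for all regions in the rat, and 13399 and 11999 in the mouse. The rat island members with H3K9me3 were wider, from 22399 bases at Cyp2u1 to 237599 at Cyp2w1. The mouse ones were Cyp4f14 with 33199 and Cyp2w1 with 208599 bases. The part of width in these shares was not tested.

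A region can also list genes of other families, which limits how far its signal belongs to the P450 gene. P450 genes alone were listed by 36 of 50 rat regions and 52 of 63 mouse regions. H3K4me3 marked 19.4% of the rat regions with P450 genes alone and 85.7% of the 14 shared with other genes, and in the mouse 23.1% and 63.6%. H3K9me3 marked 80.6% and 42.9% of the same rat regions, and 71.2% and 63.6% of the mouse ones. Rat Cyp2w1, for instance, was represented by chr12:19312600-19550199 (rn5), a region of 237599 bases that lists 9 genes and overlaps 6 CpG islands. Genes that share one region and cannot be separated are rat Cyp2a3 and Cyp2g1, Cyp2d1 with Cyp2d2 and Cyp2d3, Cyp2d4 and Cyp2d5, and Cyp4a1 and Cyp4b1, and mouse Cyp2c65 and Cyp2c66, Cyp2d10 and Cyp2d9, Cyp2d11 and Cyp2d22, Cyp4f15 and Cyp4f40, and Cyp4f17 and Cyp4f39. Near-identical copies within a cluster can also share reads, and how reads with several matches were treated is not stated in the labels.

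Of the 50 rat regions 7 (14.0%, all regions 8.24%) carried both H3K4me3 and H3K9me3, namely those of Cyp2s1, Cyp2b21, Cyp2w1, Cyp2u1, Cyp4x1, Cyp4f40 and Cyp4f6. In the mouse 4 of 63 did (6.35%, all regions 4.90%), at Cyp2d10 with Cyp2d9, Cyp4f15 with Cyp4f40, Cyp4f14 and Cyp2w1. A region is wide enough to hold both marks side by side, and a bulk tissue mixes cells, so the marks need not share a nucleosome or a cell. Neither mark was found at rat Cyp2f4, Cyp2e1 and Cyp3a62 or at mouse Cyp2c69, Cyp2c50, Cyp2c44 and Cyp2f2. Rat Cyp2e1, the ethanol-oxidising P450, nonetheless ranked at percentile 91.9 for H3K9me3 in controls. Its region, chr1:220396200-220398399 (rn5), upstream of the gene, reached a called interval in 2 of 9 libraries. Mouse Cyp2e1 ranked at 91.7 in controls and was marked, with intervals in 5 of 9 libraries. Of the other regions with neither mark, rat Cyp3a62 and Cyp2f4 stood at 83.8 and 37.1. Mouse Cyp2c50, Cyp2c69, Cyp2f2 and Cyp2c44 stood at 89.6, 84.3, 72.6 and 33.3. H3K27me3 together with H3K4me3 was found at 8 rat regions (16.0%, all regions 26.3%), among them Cyp2s1, Cyp2t1 and Cyp2ac1, and at 4 mouse regions (6.35%, all regions 18.2%), among them Cyp2s1 and Cyp4f14.

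Rat Cyp2c7 had the highest H3K9me3 signal of all members in control rats. Its region, chr1:154397800-154400199 (rn5), lies inside the gene and spans 2399 bases. In rn5 this is far from the regions of Cyp2c24 and Cyp2c12, which start at 265543800 and 266174400 on the same chromosome. In GRCr8 the Cyp2c7 promoter lies between those of Cyp2c24 and Cyp2c12. Whether the rn5 placement affects the signal was not tested. The mean signal there was 26.1, 17.2 and 14.4 in TAK-418-treated VPA rats, 18.7, 22.7 and 18.1 in vehicle-treated VPA rats and 7.47, 11.4 and 12.7 in controls. Every library of both VPA groups lay above every control library, and the VPA groups overlapped each other. Cyp4a2 (chr5:137969000-137981199, rn5, downstream of the gene) had 20.7, 10.1 and 9.65 in TAK-418-treated VPA rats, 13.7, 19.1 and 12.9 in vehicle-treated VPA rats and 4.99, 8.44 and 7.67 in controls. Cyp4a3, its neighbour and also a fatty acid omega-hydroxylase, had 15.6, 11.6 and 9.69, then 14.0, 13.6 and 7.83, then 3.43, 8.10 and 6.28 in the same 3 groups. At Cyp4a2 both VPA groups were above the controls, and at Cyp4a3 vehicle-treated VPA replicate 3 fell below control replicate 2. At the low end stood Cyp2ac1 with 1.14 ± 0.137 and Cyp2j4 with 1.27 ± 0.0666 in controls, neither with a called interval in any library. The Cyp2ac1 region lies 33244 bases downstream of the gene start and lists 2 genes.

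H3K4me3 singled out other members. Cyp2r1 (chr1:191077000-191080199, rn5, 235 bases upstream of the gene start) had 44.4, 30.2 and 49.6 in TAK-418-treated VPA rats, 35.9, 31.9 and 32.7 in vehicle-treated VPA rats and 26.8, 31.6 and 22.7 in controls. Vehicle-treated VPA rats lay just above all 3 controls, and TAK-418 replicate 2 fell among the controls. Cyp2ab1 had 24.0 ± 4.00 and Cyp4f1 had 21.8 ± 1.61 in controls (SD, n = 3). The regions of Cyp2ab1 and Cyp4f1 lie 9126 and 19341 bases downstream of the gene starts and list 3 and 2 genes. Their H3K4me3 need not come from the P450 promoters. Rat Cyp4a3 and Cyp2c7, at the top for H3K9me3, were at the bottom here with 0.667 ± 0.577 and 0.919 ± 0.824, values that include libraries listed at 0. In H3K9Ac the order was led by Cyp2t1 with 9.75 ± 1.48, Cyp4f1 with 8.73 ± 0.838 and Cyp2r1 with 8.14 ± 1.39, and in H3K27me3 by Cyp2s1 with 5.66 ± 2.15, Cyp4f39 with 5.39 ± 1.65 and Cyp2ac1 with 5.04 ± 2.70. The Cyp2t1 region lies 13363 bases downstream of the gene start and lists 5 genes. Those of Cyp2s1, Cyp4f39 and Cyp2ac1 lie 47268, 43617 and 33244 bases downstream and list 3, 3 and 2 genes. The first 3 H3K27me3 values differ by less than their SD.

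In the mouse the highest H3K9me3 in controls was at Cyp3a44 (chr5:145736200-145769799, mm10, downstream of the gene), a liver P450 of the Cyp3a cluster. It measured 6.62, 1.76 and 5.27 in TAK-418-treated poly I:C mice, 1.91, 1.89 and 6.36 in vehicle-treated poly I:C mice and 11.2, 4.21 and 3.35 in controls. Cyp2b13 followed with 7.02, 1.96 and 5.06, then 1.65, 1.93 and 5.61, then 10.8, 3.74 and 2.99 in the same 3 groups. Both regions were low in the same 3 libraries, TAK-418 replicate 2 and vehicle-treated poly I:C replicates 1 and 2, and high in control replicate 1, so the groups overlapped. Mouse Cyp2d12 was next at 5.83 ± 3.95 in controls (SD, n = 3), and Cyp2ab1 with 1.61 ± 0.140 and Cyp2j9 with 1.66 ± 0.103 were lowest. For H3K4me3 Cyp4x1, a P450 known from brain, led with 17.8 ± 6.25, followed by Cyp2t4 with 13.9 ± 5.61 and Cyp4v3 with 10.6 ± 2.87. The H3K9Ac signal was highest at Cyp2t4 with 12.0 ± 2.47, Cyp2w1 with 10.1 ± 1.91 and Cyp4x1 with 9.96 ± 3.43. The mouse Cyp2t4 region lies 14385 bases downstream of the gene start and lists 6 genes, and that of Cyp2w1 lists 11.

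The regions that represent several members of the same symbol differed between the species, but they do not lie at matching places. Cyp2u1 had H3K4me3 at 15.6 ± 3.61 in control rats, at percentile 67.1 and with intervals in 9 of 9 libraries, but 1.61 ± 0.627 in control mice, at percentile 16.8 and with none. Cyp4b1 had H3K4me3 at 8.65 ± 3.49 in control mice with intervals in 8 of 9 libraries, and 1.09 ± 0.0515 in control rats with none, in a rat region shared with Cyp4a1. Mouse Cyp4x1 had no H3K9me3 interval in any library, whereas the rat region had one in 8 of 9. Cyp4f18 had H3K4me3 intervals in 9 of 9 mouse libraries and in none of the rat. Cyp2r1 and Cyp4v3, a fatty acid hydroxylase, carried H3K4me3 in both species. Signals of the 2 species come from separate tables, so the levels are set side by side and were not compared by a test.

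Facts of the libraries bear on the comparisons between groups. The medians over all regions differed between groups for most marks, and no depth is given, so a signal change and a change of scale cannot be told apart in the deposited values. In mouse H3K9me3, 1.13% and 0.697% of all regions that represent a gene held an interval in vehicle-treated poly I:C replicates 1 and 2 and 0.731% in TAK-418 replicate 2, against 7.53% to 54.2% in the other 6 libraries. The group comparisons test log2(mean signal + 1) with limma over all regions marked in at least 3 of 9 libraries, with Benjamini-Hochberg adjustment over those regions. A region is called at an adjusted p under 0.05, and members are read against the share called among all regions tested. Counts with a library left out and counts at an unadjusted p are given for members alone. They show how far member calls depend on a library or threshold and are not read as particular to the members. The 3 comparisons of a mark share libraries: both VPA or poly I:C groups are set against the same controls.

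H3K9me3 over the P450 regions was higher in vehicle-treated VPA rats than in controls. Limma called 28 of the 35 tested member regions higher and none lower, against 58.2% of all 3377 regions tested called higher. The median log2 change was 0.69 over the member regions and 0.46 over all regions tested. The interval filter can favour regions that are high in the VPA groups: the regions of Cyp2b15, Cyp2j16 and Cyp4f40 had no interval in any control library and are among the 28. Of the 32 member regions with an interval in at least 1 control library 25 were called higher, against 54.5% of all 2902 such regions. Without any interval filter 2 of 50 member regions were called higher, beside 517 of 13757 regions. The 5 largest changes among called members were at Cyp4a2 with 1.02 (SE 0.360, adjusted p = 0.0256), Cyp3a73 with 0.97 (SE 0.343, adjusted p = 0.0258), Cyp2b3 with 0.96 (SE 0.304, adjusted p = 0.0219), the region of Cyp2a3 and Cyp2g1 with 0.93 (SE 0.319, adjusted p = 0.0243) and Cyp2a1, a testosterone hydroxylase, with 0.93 (SE 0.301, adjusted p = 0.0228). The signal at Cyp2b3 was 6.43, 10.0 and 6.73 in vehicle-treated VPA rats and 2.41, 3.86 and 4.23 in controls. At Cyp3a73 it was 10.7, 14.3 and 8.56 in vehicle-treated VPA rats and 3.16, 6.38 and 6.42 in controls. Neither region's groups overlapped.

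The called members came from most of the clusters. They included all 3 Cyp2a regions, Cyp3a18, Cyp3a73, Cyp3a2 and Cyp3a9 of the Cyp3a cluster, Cyp4a2, Cyp4a3, Cyp4a8 and the region of Cyp4a1 and Cyp4b1, and Cyp2c7, Cyp2c11, Cyp2c12, Cyp2c13, Cyp2c22 and Cyp2c24 of the Cyp2c cluster. Those that did not pass were Cyp2b2, Cyp2c79, Cyp2c23, Cyp2w1, Cyp4f18, Cyp4f6 and the region of Cyp2d1, Cyp2d2 and Cyp2d3, with log2 values of 0.21 to 0.69 and adjusted p from 0.0526 to 0.158. Without the filter on intervals the vehicle-treated VPA libraries lay wholly above the controls at 37 of 50 member regions, against 47.5% of all regions.

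These calls depended on single libraries and on the scale. With any 1 of the 3 control libraries, or vehicle-treated VPA replicate 1 or 2, left out, 0 member regions were called, against 25 without vehicle-treated VPA replicate 3 and 34, 26 and 33 without TAK-418 replicates 1, 2 and 3. When each library was centred on the median of all regions, 0 member regions were called, with 27 at an unadjusted p under 0.05 and 0.859% of all regions called higher, and the median change was 0.55 over members and 0.32 over all regions tested. After quantile normalization 0 were called, with 10 at an unadjusted p under 0.05, and the medians were 0.14 and 0.06. Over all regions, the share with a called H3K9me3 interval was 24.4%, 24.0% and 22.4% in vehicle-treated VPA rats and 9.25%, 20.3% and 19.4% in controls. Its part in the result was not tested.

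**Figure D3:**
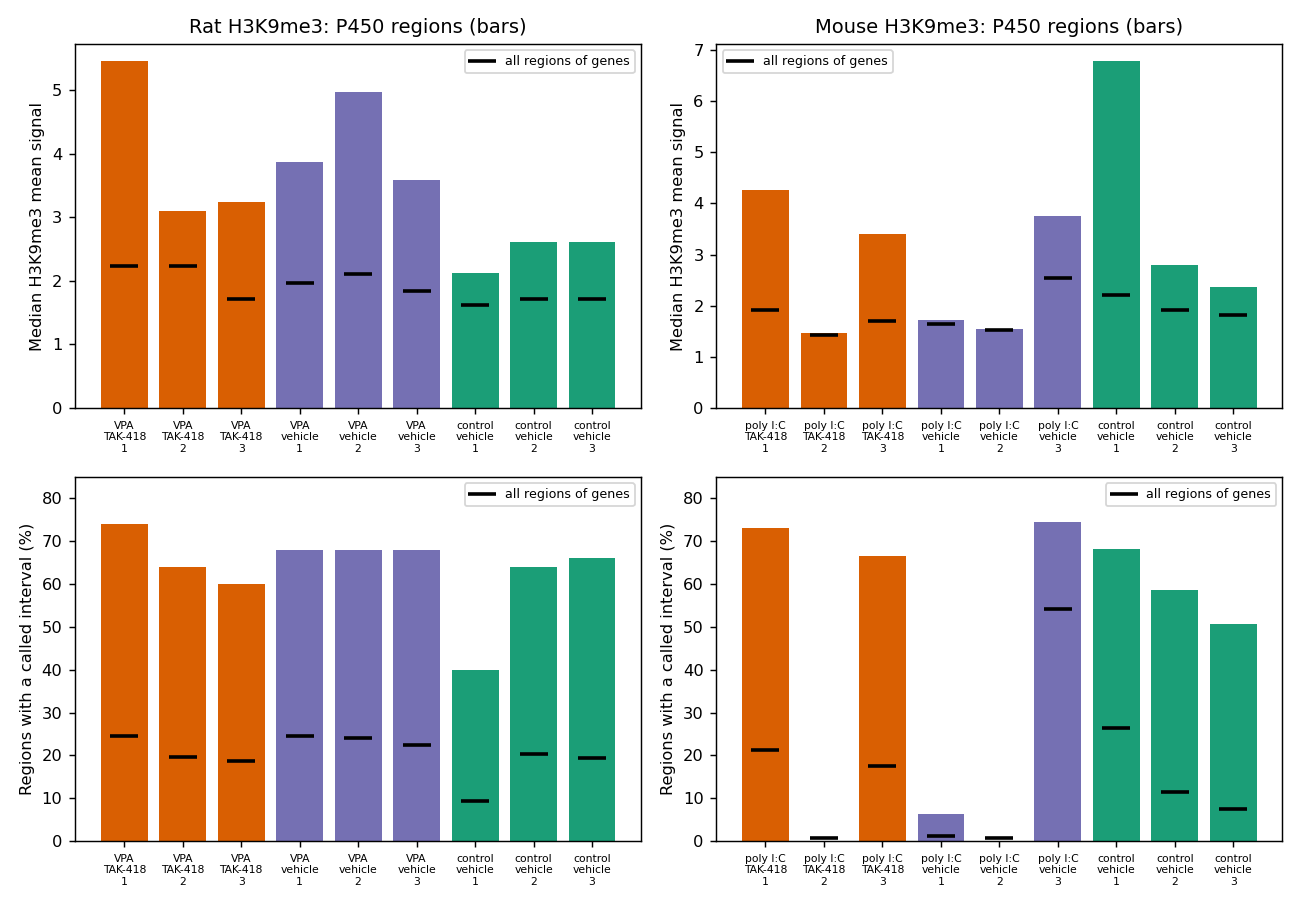
Bars give, for each H3K9me3 library on the x axis, the median mean signal of the member regions (upper panels) and the percent of member regions with a called interval (lower panels), rat on the left and mouse on the right, and black lines give the same for all regions that represent a gene. The rat member median is 3.59 to 4.97 in vehicle-treated VPA libraries and 2.13 to 2.62 in controls, and in the mouse TAK-418 replicate 2 and vehicle-treated poly I:C replicates 1 and 2 lie at 1.46 to 1.72.

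For H3K9me3 in TAK-418-treated VPA rats against controls, members were called at about the rate of all regions. Limma called 10 of 35 member regions higher and none lower, against 30.4% of all regions tested, and 26 members had an unadjusted p under 0.05. Among regions with an interval in at least 1 control library 8 of 32 members were called, against 24.4% of all such regions. Without any interval filter 3 of 50 members were called, a count given for members alone and not read as particular to them. The median log2 change was 0.59 over members and 0.43 over all regions tested. Cyp4a3 had the largest change among called members at 0.97 (SE 0.351, adjusted p = 0.0378), followed by Cyp2b3 at 0.89 (SE 0.304, adjusted p = 0.0344), Cyp2a1 at 0.75 (SE 0.301, adjusted p = 0.0482), Cyp2a2 at 0.73 (SE 0.288, adjusted p = 0.0471) and Cyp2b15 at 0.71 (SE 0.216, adjusted p = 0.0211). The Cyp2b15 region (chr1:258571200-258575199, rn5, upstream of the gene, listed with 1 other gene) held 4.52, 4.48 and 2.92 in TAK-418-treated VPA rats and 1.71, 2.09 and 2.26 in controls. It held no interval in any control library and was tested through those of the VPA groups, so its call is not independent of that filter. In rn5 the region is far from that of Cyp2b12, which starts at 84732200. The GRCr8 promoters of Cyp2b15 and Cyp2b12 start at 91221615 and 91135044. The count was 0 without any 1 of the control libraries or vehicle-treated VPA replicate 1, 5 and 2 without vehicle-treated VPA replicates 2 and 3, and 1 and 31 without TAK-418 replicates 1 and 3. After median centring it was 0, beside 0.296% of all regions called higher and 0.0296% lower, and after quantile normalization it was 0.

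Between TAK-418-treated and vehicle-treated VPA rats no member region was called for H3K9me3, and none had an unadjusted p under 0.05. These counts are given for members alone and are not read as particular to them. The median log2 change was -0.08 over members and -0.04 over all regions tested. The smallest p among members were at Cyp4x1 with -0.17 (SE 0.133, limma adjusted p = 1.00) and Cyp2b1 with -0.36 (SE 0.310, limma adjusted p = 1.00). The member median per library was 5.45, 3.09 and 3.24 in TAK-418-treated VPA rats and 3.86, 4.97 and 3.59 in vehicle-treated VPA rats, so the TAK-418 libraries spanned the others.

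**Figure D4:**
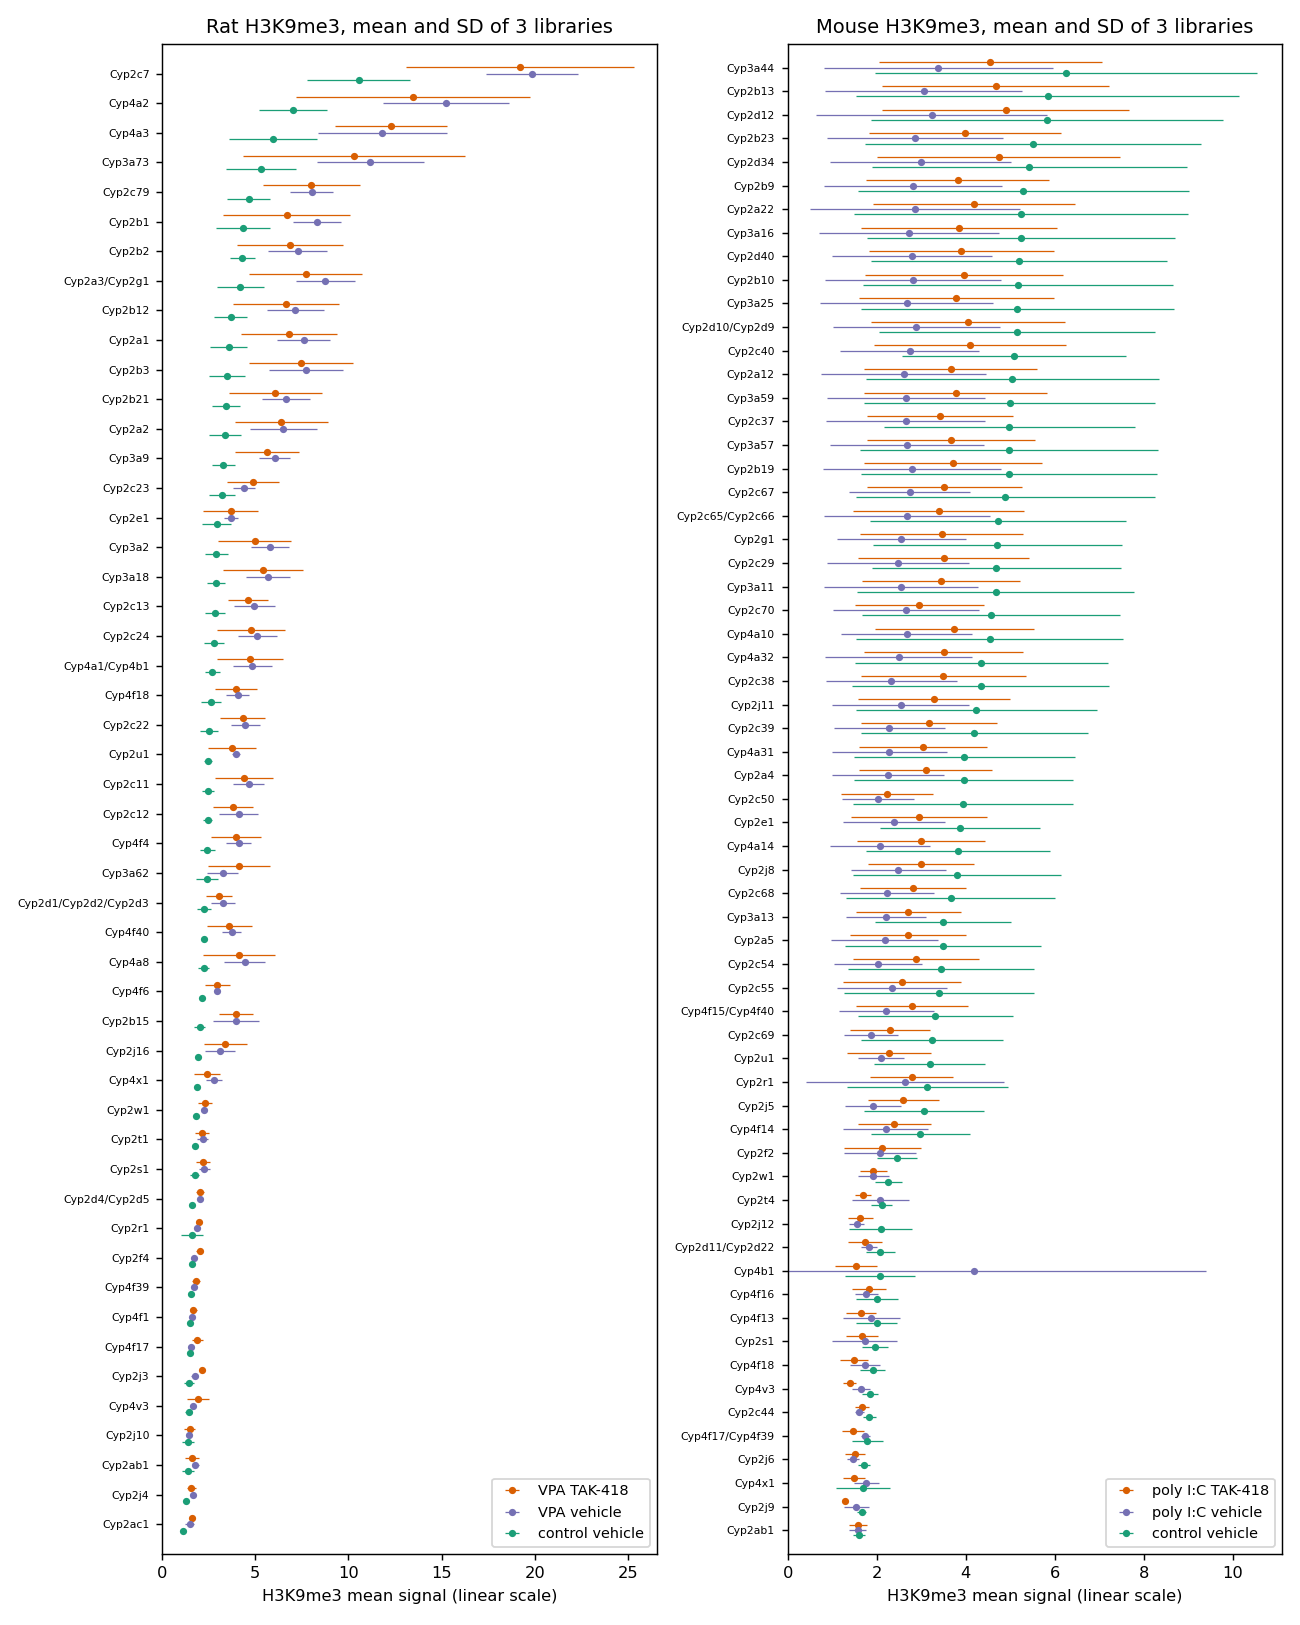
H3K9me3 mean signal (x axis, linear scale) of every member region (rows, ordered by control mean), rat on the left and mouse on the right. Points are group means and horizontal lines the SD of 3 libraries. Cyp2c7 tops the rat panel with a control mean of 10.5, and the mouse groups overlap over nearly all rows.

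The H3K4me3-bearing members had more H3K4me3 in TAK-418-treated VPA rats than in controls, as did most regions. Of 19 member regions tested 15 were called higher and none lower, against 81% of all 9617 regions tested called higher and 0.0104% lower. The median log2 change of 0.52 over members lay below the 0.61 over all regions. Cyp2ac1 had 31.6, 14.7 and 28.0 in TAK-418-treated VPA rats and 8.59, 15.0 and 14.6 in controls, a log2 change of 0.88 (SE 0.226, adjusted p = 0.00147). The Cyp2ac1 region lies 33244 bases downstream of the gene start and lists 2 genes, so its signal need not come from the P450 promoter. TAK-418 replicate 2 lay within the range of the controls. Cyp2u1, the brain-expressed fatty acid hydroxylase, had 27.8, 18.2 and 35.7 in TAK-418-treated VPA rats and 12.6, 19.6 and 14.7 in controls, a log2 change of 0.74 (SE 0.230, adjusted p = 0.00561), again with TAK-418 replicate 2 among the controls. Cyp4f40, whose region lies inside the gene, had 3.82, 4.20 and 5.34 in TAK-418-treated VPA rats and 2.61, 2.18 and 3.00 in controls, a log2 change of 0.60 (SE 0.154, adjusted p = 0.00152), without overlap. The Cyp4f40 region held an interval in 2 TAK-418, 0 vehicle-treated VPA and 1 control libraries, just the 3 of 9 needed. Its call is therefore not independent of the interval filter. Cyp4f6 and Cyp2t1 were the other 2 of the 5 largest, at 0.64 and 0.62. After median centring Cyp4f40 stood at -0.020, and after quantile normalization Cyp2t1 stood at -0.012.

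The other 4 tested regions, those of Cyp2ab1, Cyp2j4, Cyp4x1 and Cyp4f1, had log2 values of 0.38 to 0.45 and adjusted p of 0.0548 or more by limma. The count of 15 fell to 4 and 7 without control replicates 1 and 3 and to 3 and 2 without TAK-418 replicates 1 and 3. It was 0 after either rescaling.

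For H3K4me3 in TAK-418-treated against vehicle-treated VPA rats, none of the 19 member regions was called, with 5 at an unadjusted p under 0.05, against 0.146% of all regions called higher. Cyp4f40 came closest, with 3.82, 4.20 and 5.34 in TAK-418-treated and 2.05, 3.36 and 2.38 in vehicle-treated VPA rats, which did not overlap. Its log2 change was 0.61 (SE 0.154, limma adjusted p = 0.0506). The region passed the interval filter with 2 TAK-418, 0 vehicle-treated VPA and 1 control libraries, so this value is not independent of the filter. Cyp2ac1 had a log2 value of 0.54 (SE 0.226, limma adjusted p = 0.689). In vehicle-treated VPA rats against controls none of the 19 was called, with 2 at an unadjusted p under 0.05, and 1.5% of all regions were called higher. The lowest p there were at Cyp2j10 with 0.42 (SE 0.171, limma adjusted p = 0.0880) and Cyp2t1 with 0.45 (SE 0.228, limma adjusted p = 0.121). Without control replicate 2 this comparison gave 4 member regions and without TAK-418 replicate 2 it gave 2, and the TAK-418 against vehicle comparison gave 1, 1 and 2 without control replicates 1 and 2 and TAK-418 replicate 2.

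H3K9Ac over the members was higher in vehicle-treated VPA rats than in controls at 14 of 17 regions tested and lower at none, while 95.7% of all 9687 regions tested were called higher. The median log2 change was 0.72 over members and 0.85 over all regions. Cyp2t1 had the largest, with 26.2, 29.4 and 15.0 in vehicle-treated VPA rats and 11.3, 8.33 and 9.64 in controls, a log2 change of 1.15 (SE 0.254, adjusted p = 2.08e-04). Cyp2w1 had 16.1, 18.3 and 8.61 in vehicle-treated VPA rats and 6.95, 5.54 and 6.18 in controls, a log2 change of 1.03 (SE 0.254, adjusted p = 3.45e-04). In neither did the groups overlap, and vehicle-treated VPA replicate 3 was the lowest of its group in both. Cyp2ac1 followed at 0.96, the region of Cyp2d4 and Cyp2d5 at 0.90 and Cyp2s1 at 0.85. Cyp2b21, Cyp2j4 and Cyp2j3, at 0.18, 0.30 and 0.43, did not pass, with adjusted p of 0.0575 to 0.188.

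Centred on the median of all regions, the same comparison called 2 member regions higher and 2 lower, beside 14.8% of all regions higher and 7.62% lower. The higher ones were Cyp2t1 with 0.35 (SE 0.0773, limma adjusted p = 0.0214) and Cyp2w1 with 0.24 (SE 0.0731, limma adjusted p = 0.0398), both in wide regions that list other genes. The lower ones were Cyp2b21 with -0.61 (SE 0.172, limma adjusted p = 0.0314) and Cyp2j3, an epoxygenase, with -0.37 (SE 0.122, limma adjusted p = 0.0487). After quantile normalization none was called, beside 0.0206% of all regions higher and 0.454% lower. These 4 were named after their values were seen.

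TAK-418-treated VPA rats had less H3K9Ac than vehicle-treated VPA rats at 2 of 17 member regions and more at none, against 28.5% of all regions called lower and 0.0206% higher. Cyp2ac1 had 5.43, 4.65 and 5.45 in TAK-418-treated and 9.86, 11.7 and 6.52 in vehicle-treated VPA rats, without overlap, a log2 change of -0.71 (SE 0.244, adjusted p = 0.0291). Its region lies 33244 bases downstream of the gene start and lists 2 genes. Cyp2t1 had 14.1, 17.5 and 11.9 in TAK-418-treated and 26.2, 29.4 and 15.0 in vehicle-treated VPA rats, with replicate 3 of the vehicle group inside the TAK-418 range, a log2 change of -0.63 (SE 0.254, adjusted p = 0.0492). The median change was -0.43 over members and -0.51 over all regions. Without vehicle-treated VPA replicate 3 the count was 15, without control replicate 1 or TAK-418 replicate 2 it was 1, and without any other single library it was 0. After centring Cyp4f39 was the only member called, with 0.24 (SE 0.0622, limma adjusted p = 0.0169), beside 6.03% of all regions higher and 22.5% lower. After quantile normalization no member was called, beside 3.09% of all regions higher and 1.81% lower. In TAK-418-treated VPA rats against controls none of the 17 was called, with 3 at an unadjusted p under 0.05, and none of all regions tested was called either. The medians were 0.27 over members and 0.33 over all regions, and without vehicle-treated VPA replicate 3 the count was 7.

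H3K27me3 gave no call at the 10 rat member regions in any of the 3 comparisons, with 0 at an unadjusted p under 0.05, and 0% of all regions were called. After centring no member was called either, beside 0.152% of all regions higher in each VPA group than in controls and 0.0217% lower in TAK-418-treated VPA rats than in each of the other groups. The smallest p among members in vehicle-treated VPA rats against controls was at Cyp2ac1, with 3.94, 4.44 and 3.06 in vehicle-treated VPA rats and 4.16, 8.07 and 2.89 in controls, a log2 value of -0.25 (SE 0.379, limma adjusted p = 1.00).

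**Figure D5:**
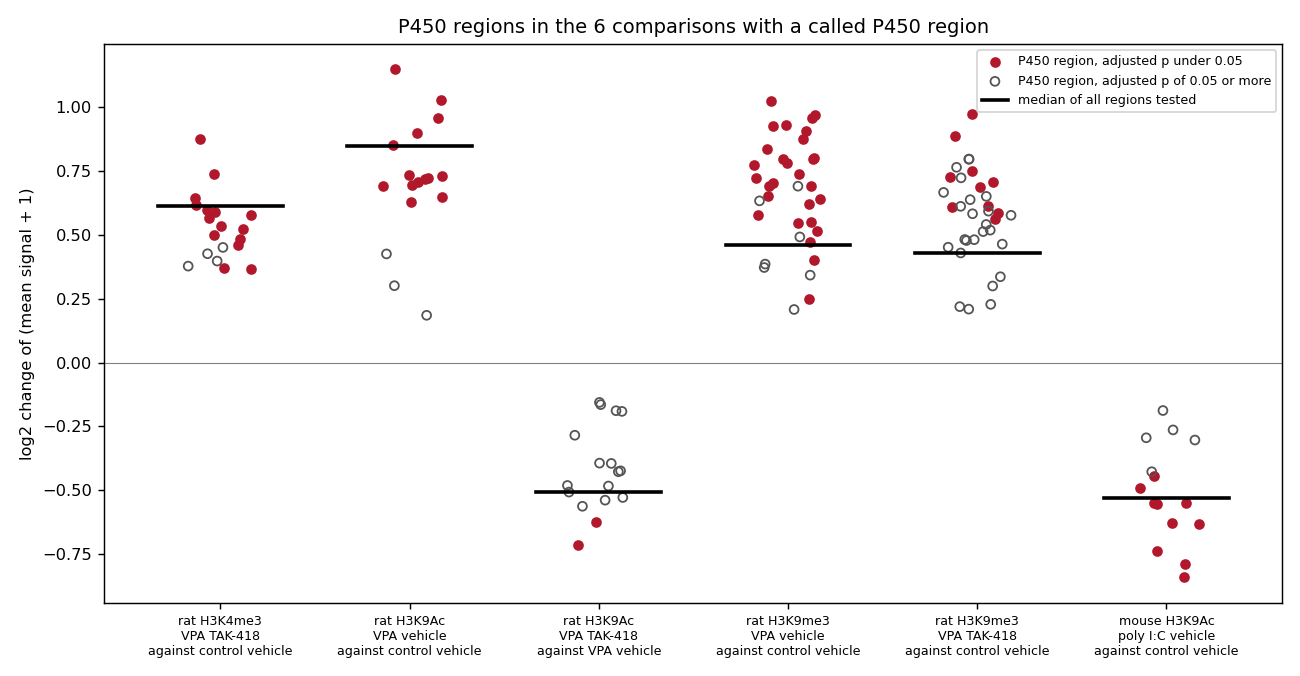
Change in log2(mean signal + 1) of each tested member region (y axis) in the 6 comparisons with a called member region (x axis). Filled points have an adjusted p under 0.05, open points do not, and the black line is the median of all regions tested. In rat H3K4me3 (TAK-418-treated VPA against control) the members have a median of 0.52 and all regions 0.61, and in rat H3K9me3 (vehicle-treated VPA against control) the medians are 0.69 and 0.46.

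For mouse H3K9Ac in vehicle-treated poly I:C mice against controls, members were called lower at about the rate of all regions. Limma called 10 of 15 tested member regions lower and none higher, against 61.6% of all 9175 regions tested, and the medians were -0.55 over members and -0.53 over all regions. Cyp2t4 had 7.46, 4.65 and 6.78 in vehicle-treated poly I:C mice and 14.4, 12.3 and 9.44 in controls, a log2 change of -0.84 (SE 0.265, adjusted p = 0.0318). The region of Cyp2d11 and Cyp2d22, of which Cyp2d22 is known from mouse brain, had 4.98, 2.62 and 4.13 in vehicle-treated poly I:C mice and 8.08, 7.09 and 5.97 in controls, a log2 change of -0.74 (SE 0.229, adjusted p = 0.0318). Cyp2j9, an arachidonic acid epoxygenase described in mouse brain, had 3.60, 3.31 and 3.20 in vehicle-treated poly I:C mice and 7.37, 5.29 and 4.84 in controls, a log2 change of -0.63 (SE 0.213, adjusted p = 0.0318). At these 3 regions the groups did not overlap. Cyp2w1 with -0.79 and Cyp4x1 with -0.63 completed the 5 largest.

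This count was 0 without control replicate 1 or 2, vehicle-treated poly I:C replicate 2 or 3, or TAK-418 replicate 1 or 2, and 0 after either rescaling. In TAK-418-treated poly I:C mice against controls none of the 15 was called, with 11 at an unadjusted p under 0.05 and medians of -0.45 over members and -0.52 over all regions. None of all regions tested was called there either. Without control replicate 3 the member count was 15 and without vehicle-treated poly I:C replicate 2 it was 10. Cyp2j9 had 3.93, 3.74 and 2.19 in TAK-418-treated poly I:C mice and 7.37, 5.29 and 4.84 in controls, a log2 value of -0.68 (SE 0.213, limma adjusted p = 0.0519). TAK-418-treated against vehicle-treated poly I:C mice gave 0 of 15, with 0 at an unadjusted p under 0.05, counts given for members alone and not read as particular to them. The smallest p there was at the region of Cyp2d11 and Cyp2d22, with a log2 value of 0.14 (SE 0.229, limma adjusted p = 1.00).

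The other mouse marks gave no call among members by limma in any comparison, and at most 0.0103% of all regions were called. For H3K4me3 the counts at an unadjusted p under 0.05 were 7 of 19 in vehicle-treated poly I:C mice against controls, 0 in TAK-418-treated against vehicle-treated poly I:C mice and 0 in TAK-418-treated poly I:C mice against controls. The member medians were -0.44, 0.07 and -0.34, beside -0.48, 0.11 and -0.38 over all regions. Without control replicate 3 the first of these comparisons gave 11 lower. Cyp4x1 had H3K4me3 of 13.4, 14.3 and 13.9 in vehicle-treated poly I:C mice and 24.9, 15.1 and 13.3 in controls, which overlapped, control replicate 3 being the lowest of all. For H3K27me3, 0 of 5 were called in all 3 comparisons and 0 had an unadjusted p under 0.05. The medians were -0.47 over members and -0.47 over all regions in TAK-418-treated against vehicle-treated poly I:C mice, and without vehicle-treated poly I:C replicate 3 all 5 were called lower there.

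For mouse H3K9me3, 0 of 44 member regions were called in each comparison, with 0 at an unadjusted p under 0.05. The member medians of log2 change were -0.63 in vehicle-treated poly I:C mice against controls, 0.34 in TAK-418-treated against vehicle-treated poly I:C mice and -0.29 in TAK-418-treated poly I:C mice against controls, beside -0.47, 0.21 and -0.25 over all regions. Libraries of one group differed widely. A called interval lay over 46, 0 and 42 of 63 member regions in TAK-418-treated poly I:C mice, 4, 0 and 47 in vehicle-treated poly I:C mice and 43, 37 and 32 in controls. Without those 3 libraries the medians were 0.07, 0.01 and 0.07 over members and 0.06, -0.04 and 0.02 over all regions, with 0 calls. The vehicle group then rests on 1 library and the libraries were left out for their few intervals, so these medians do not bear on the difference between the groups. Cyp4b1 had a single high value, 10.2 in vehicle-treated poly I:C replicate 3, against 1.00 to 2.94 in the other 8 libraries.

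Gene lists around the P450 system were read for comparison. The H3K9me3 median percentile in control rats was 50.7 over P450 genes of other families, 40.4 over the electron partners and haem enzymes that include Por, 62.0 over nuclear receptors and transcription factors of P450 genes, 40.2 over other drug-metabolising enzymes and 22.8 over hepatocyte genes, against 88.2 for the clustered P450 genes. In control mice the same lists stood at 59.5, 41.5, 43.3, 56.2 and 40.1, against 90.8. For H3K4me3 the electron partners stood at 56.7 in rats and 75.8 in mice and the nuclear receptors at 50.5 and 55.5. For H3K9Ac in vehicle-treated VPA rats against controls, 15 of 15 P450 genes of other families, 9 of 9 electron partners, 18 of 18 nuclear receptors, 19 of 20 drug-metabolising enzymes and 3 of 3 hepatocyte genes were called higher, beside 95.7% of all regions, a share that was 14.8% after median centring. For H3K9me3 in the same comparison 2 of 10 nuclear receptors, 2 of 6 drug-metabolising enzymes and 0 of 2 P450 genes of other families were, beside 58.2% of all regions, a share that was 0.859% after median centring. Kdm1a, the target of TAK-418, had H3K4me3 of 9.05 ± 2.55 in control rats and 14.3 ± 6.81 in control mice (SD, n = 3), at percentiles 49.8 and 77.7.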

How the data were processed

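Cortex ChIP libraries for 4 histone marks were compared within species. The values are the mean signal per merged region as deposited by the authors, 0 or at least 1, with columns for called intervals and nearby genes per the file headers. Reads were aligned with BWA 0.7.12 to rn5 and mm10 per the submitters' processing notes. The interval caller, the scaling of the signal and the meaning of the tag "dm" in the library names are not stated in the labels or file headers. Depth is unknown, so no counting interval is given, and 3 libraries per group limit the precision.

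The members and gene lists were chosen with earlier results of these data known. Regions representing a gene with an interval in at least 3 of 9 libraries were tested on log2(signal + 1), so folds are on that scale and understate the change of low regions, with limma 3.58.1 (trend, robust) in R 4.3.3, in one fit over the 9 libraries of a mark, with Benjamini-Hochberg adjustment at 0.05. The fit was tested on simulated data. Summaries used Python 3.11.15, pandas 2.3.3 and numpy 2.4.6. Alternatives were median centring, quantile normalization, a pseudocount of 4, no interval filter, the nearest region of each gene, the replicate number as a block and leaving out each library. For mouse H3K27me3 with TAK-418 after poly I:C and in controls, all 3 same-numbered pairs of libraries deviated together (correlations 0.500, 0.156 and 0.303), a pairing read from the data and not from the labels, and the block changed no call. The split by control intervals and dropping 3 mouse H3K9me3 libraries with few intervals were chosen after seeing the data. Named members are the 5 largest called changes each way per comparison, otherwise the 2 smallest p, the 3 highest and 2 lowest control means per mark, the member with the largest control SD, those sharing a region, and a set of single-copy or brain-studied members. The pooled inputs and the highest-signal columns were not used. By the symbol rule 2 rat symbols and 7 mouse symbols of these families, pseudogenes and letter-suffixed copies, were left out.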

Additional observations from a re-analysis of the deposited data

How the results depend on the processing

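Counts of called member regions depended most on scale and on single libraries. With median centring the counts were 0 for rat H3K4me3 (TAK-418-treated VPA against control), 4 for rat H3K9Ac (vehicle-treated VPA against control), 1 higher for rat H3K9Ac (TAK-418-treated against vehicle-treated VPA, reversed from 2 lower), and 0 for both rat H3K9me3 comparisons with controls and for mouse H3K9Ac (vehicle-treated poly I:C against control). Quantile normalization gave 0 for each of these 6. A pseudocount of 4 gave 1 for rat H3K4me3 (TAK-418-treated against vehicle-treated VPA), 3 for rat H3K9me3 and 9 for mouse H3K9Ac (both TAK-418-treated against control). Without the interval filter rat H3K9me3 gave 2 (vehicle-treated VPA against control) and 3 (TAK-418-treated VPA against control). The nearest region of each gene gave 1 for rat H3K9Ac (TAK-418-treated against vehicle-treated VPA) and median control percentiles of 18.2 for rat H3K9Ac, 84.8 for rat H3K9me3, 14.6 for mouse H3K4me3 and 85.6 for mouse H3K9me3.

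Of 72 correlations between the deviations of same-numbered libraries from their group means (-0.66 to 0.77), 27 passed 0.1, and in 23 of the 24 pairs of groups they did not all pass, so the numbers were not read as pairs there. With the replicate block, mouse H3K27me3 (TAK-418-treated poly I:C against control), the exception, still had 0 member regions called. Elsewhere the block gave 8 for rat H3K4me3 (TAK-418-treated VPA against control), 8 for rat H3K9Ac (TAK-418-treated against vehicle-treated VPA), 0 for both rat H3K9me3 comparisons with controls and 13 for mouse H3K9Ac (TAK-418-treated poly I:C against control).

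Leaving out 1 library at a time gave these lowest and highest counts. In rat H3K4me3 they were 0 and 4 (vehicle-treated VPA against control), 0 and 2 (TAK-418-treated against vehicle-treated VPA) and 2 and 17 (TAK-418-treated VPA against control). In rat H3K9Ac they were 11 and 16, 0 and 15, and 0 and 7 in the same order, and in rat H3K9me3 0 and 34, 0 and 0, and 0 and 31. In the mouse they were 0 and 11 for H3K4me3 and 0 and 12 for H3K9Ac (vehicle-treated poly I:C against control), 0 and 15 for H3K9Ac (TAK-418-treated poly I:C against control) and 0 and 5 for H3K27me3 (TAK-418-treated against vehicle-treated). The other comparisons gave 0 each time.

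Quantile normalization reversed Cyp2t1 in rat H3K4me3 (TAK-418-treated VPA against control, -0.012) and rat H3K9Ac (TAK-418-treated against vehicle-treated VPA, 0.026), and in mouse H3K27me3 Cyp4f14 (-0.00474 for vehicle-treated poly I:C against control and 0.00927 for TAK-418-treated against vehicle-treated), the region of Cyp4f15 and Cyp4f40 (0.00752, same comparison) and Cyp2w1 (0.028, TAK-418-treated poly I:C against control). Centring reversed Cyp4f40 in rat H3K4me3 (-0.020, TAK-418-treated VPA against control). Cyp2a12 H3K9me3 in vehicle-treated poly I:C mice against controls was 0.063 without the 3 libraries with few intervals and -1.12 to -0.31 with 1 library left out. Leaving out 1 library moved these log2 values across 0: in rat H3K27me3 Cyp2ac1 (-0.52 to 0.093 for vehicle-treated VPA against control, -0.059 to 0.38 for TAK-418-treated against vehicle-treated), Cyp2j4 (-0.065 to 0.45) and Cyp2t1 (-0.19 to 0.050, both TAK-418-treated VPA against control); in mouse H3K9Ac, TAK-418-treated against vehicle-treated poly I:C, the regions of Cyp2d11 and Cyp2d22 (-0.066 to 0.32) and of Cyp2d10 and Cyp2d9 (-0.16 to 0.014); and in mouse H3K27me3, vehicle-treated poly I:C against control, Cyp4f14 (-0.17 to 0.50) and Cyp2s1 (-0.25 to 0.53). None of these reversed log2 values passed the threshold. Depth is not given, so how far it limits these calls is unknown. The cause of these differences was not tested.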
